A study of Homo sapiens with 26 samples.

Results

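Human chromosome 13 was described from 956 bins of 100 kb, out of 26331 bins with usable values in the whole series. The bins were taken by position: all those that the table places on chromosome 13 in genome build hg19 and that were above 0 in at least 1 of 26 single cells. The first 190 bins of the chromosome, up to position 19000000, had no value in any cell, and 6 more bins were 0 in all cells. Just inside that limit stood 2 bins with a count in 1 cell each. The first used bin started at 19200001 and the last ended at 115100000, so all used bins lay on the long arm. The first 3, in 13q11, held 9 counts in all and are in no band described here.

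The assay was single-cell DamID. The bacterial adenine methyltransferase Dam marks GATC sequences that it can reach in living cells, and marked fragments are cut with a methyl-dependent enzyme, ligated to adapters, amplified and sequenced. Each of the 26 samples was 1 cell of KBM7, a human leukaemia line with a nearly haploid genome, from clone 5-8, labelled haploid (1N) and carrying Dam with no fusion partner (DamOnly). Dam was induced with 0.5 nM Shield1 for 15 h in every cell, and the sort took the smallest 2% of cells that carried both Fucci cell cycle markers. The series title names LaminB1, but every sample label and the design text name Dam alone, and the labels were followed. All cells form 1 group from 1 clone with no second condition, so the comparisons are between stretches of DNA inside the same cells. No p-value was computed, each SD is the spread between cells of that clone, and n is 26 cells unless another number is given.

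Chromosome 13 is acrocentric: its short arm holds ribosomal DNA and satellite repeats, to which short reads map poorly. Its long arm is among the gene-poorest of the genome and alternates between gene-rich bands and long gene deserts. Deserts in human chromosomes are known to replicate late and to lie often at the nuclear lamina, whereas unfused Dam reaches open, active chromatin more readily. Band 13q14 carries the tumour suppressor RB1, the transcription factor FOXO1 and the DLEU genes, a stretch often deleted in chronic lymphocytic leukaemia. Band 13q34, at the telomere, carries the collagen IV genes COL4A1 and COL4A2 and the coagulation factors F7 and F10. The deserts 13q21 and 13q31 hold few genes, some of them very long. The genes there include the protocadherin PCDH9, some members of the SLITRK family of neuronal membrane proteins and the glypican GPC5. These genes are background, and none was placed in a bin. The table of protein-coding genes used for this work, which is of build GRCh38, lists 338 on chromosome 13, 769 on chromosome 4, 270 on chromosome 18, 605 on chromosome 14 and 1451 on chromosome 19.

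The deposited value is a ratio of observed over expected signal per bin. The values of each cell were first divided by the relative size of 1 count in that cell, taken from ratios between cells. The scaled values of any bin were then multiples of 1 step. Dividing by that step gave whole counts and a relative expectation for the bin. The smallest whole numbers were taken, so a bin with signal in 1 cell has 1 count by construction. Chromosome 13 held 41612 counts over the 26 cells, between 523 and 5047 per cell with a median of 1184, against 20182 to 178941 in the whole genome of a cell. That is 0.547 to 5.28 counts per used bin, so single bins in single cells carry a large counting error. A level is the mean ratio of a region divided by the mean ratio of all other autosomes in the same cell. Among these autosomes, chromosomes 9 and 22 enter as the derivatives 9:22 and 22:9, and chromosome 8 is absent because it had no used bins. A level of 1 is therefore the autosomal mean.

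Cell 22 stood apart on this chromosome. Over 31 sub-bands, its levels had a Pearson correlation of -0.21 with the mean of the other cells (a description across sub-bands, which are not independent). In the other 25 cells this correlation lay between 0.674 in cell 26 and 0.932 in cell 19. Cell 22 also had the second fewest counts genome-wide, 21105. The contrasts of 13q14 and 13q34 with the deserts are therefore given with and without it, and so are most other contrasts between whole bands.

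Chromosome 13 as a whole was below the other autosomes in each of the 26 cells. Its level was 0.587 in the lowest cell, 0.727 in the median cell and 0.996 in the highest. Without the bins of 13q21 and 13q31, the remaining 617 bins had a level of 0.899 ± 0.139 (SD), against 0.737 ± 0.105 for the chromosome with them. The part outside the 2 deserts was below 1 in 22 of 26 cells. The highest cells for that part were cell 23 at 1.29 and cell 21 at 1.20, both with low coverage. By 1 Mb windows, the median was 0.696 on chromosome 13 with its deserts and 0.90 on all other autosomes.

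By band the long arm ran from a high proximal part through the deserts to an intermediate distal part. Bands 13q12 to 13q14 together had a level of 1.01 ± 0.197, close to the autosomal mean. The median cell stood at 0.968, and 17 of 26 cells were below 1. Without cells 21 and 23, the 2 highest, the level was 0.963 ± 0.104. Bands 13q32 to 13q34 had 0.757 ± 0.125. The proximal part was higher than the distal part in 25 of 26 cells, by a mean log2 ratio of 0.41 ± 0.29, with cell 22 as the exception at -0.10; without cell 22 the mean was 0.44. Along the way 13q21 and 13q31 formed 2 troughs, separated by 13q22 at 0.717 ± 0.188. Band 13q22 was higher than 13q21 in all 26 cells (log2 ratio 0.77 ± 0.30) and higher than 13q31 in all 26 (0.59 ± 0.30). Without cell 22 these values were 0.76 and 0.60.

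**Figure D1:**
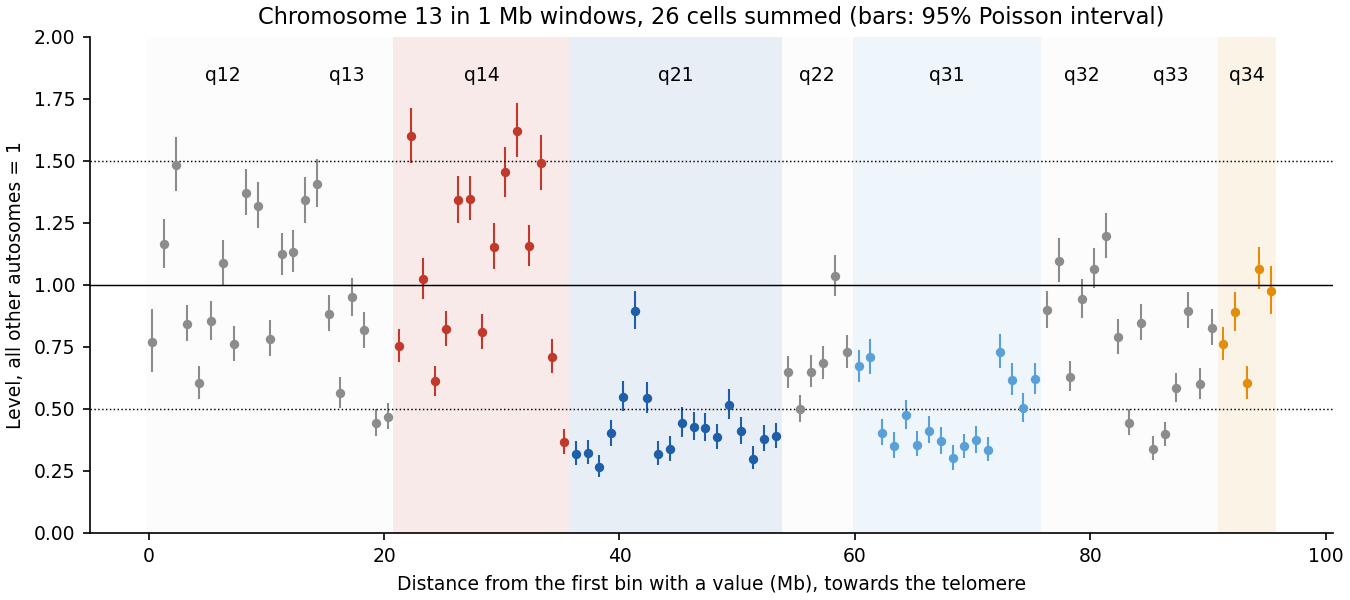
Level of chromosome 13 in 96 windows of 1 Mb, with the recovered counts of 26 cells summed, against distance in Mb from the first bin with a value (y axis: level, all other autosomes = 1; bars: 95% Poisson interval, counting error only; dotted lines at 0.5 and 1.5). Windows of 13q14 (red) reach 1.62, those of 13q21 and 13q31 (dark and light blue) form 2 troughs with lows of 0.266 and 0.300, and those of 13q34 (orange) lie between 0.604 and 1.07.

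In order of level the 9 bands ran 13q14 at 1.08, 13q12 at 1.01, 13q32 at 0.916, 13q13 at 0.873, 13q34 at 0.821, 13q22 at 0.717, 13q33 at 0.598, 13q31 at 0.474 and 13q21 at 0.415. Neighbours in that order were set side by side within each cell, and a difference was called when at least 21 of 26 cells lay on 1 side. Only 13q22 over 13q33 (21 cells) and 13q33 over 13q31 (24 cells) reached that number. The step between the deserts did not: 13q31 was above 13q21 in 20 of 26 cells, by a log2 ratio of 0.18 ± 0.24. At the top, 13q14 was above 13q12 in 19 cells, by 0.11 ± 0.19.

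By the same rule against the autosomal mean, 6 of the 9 bands were below 1 (13q13, 13q21, 13q22, 13q31, 13q33 and 13q34) and 0 were above it. For 13q34 the call was lost, with 20 of 26 cells below 1, by summed counts over summed expectation and also without bins of small expectation. Among 5 Mb windows of all other autosomes, 40.1% were below 1 in at least 21 cells and 28.1% above. Bands 13q12, 13q14 and 13q32 were on neither side. Bands differ in length from 5 Mb, so these shares are only a guide.

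Band 13q14 stood higher above both deserts than 13q34 did. Band 13q14 (hg19, 40100001 to 55300000, 151 used bins) had levels of 0.702 in the lowest cell, 1.05 in the median cell and 1.63 in the highest. Band 13q21 (55300001 to 73300000, 180 bins) had 0.275, 0.400 and 0.627, and band 13q31 (79000001 to 95000000, 159 bins) had 0.279, 0.453 and 0.923. Cell 22 supplied the low value of 13q14 and both high values of the deserts; apart from it the lowest 13q14 level, 0.914, was above the highest 13q21 and 13q31 levels, 0.536 and 0.614.

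Within cells, 13q14 was higher than 13q21 in all 26, with a log2 ratio of 1.39 ± 0.39, or 2.62-fold. This was 25 of 26 cells when bins near a band edge were left out, when edges were moved towards the telomere, and by the share of bins at 1 or more. It was higher than 13q31 in 25 of 26 cells, with a log2 ratio of 1.21 ± 0.41, or 2.32-fold, and the exception was cell 22 at -0.39. Without cell 22 the 2 values were 1.44 and 1.28. Summed over all cells, the fold of 13q14 over 13q21 was 2.44 with an exact 95% interval from 2.36 to 2.53, and over 13q31 it was 2.19 (2.11 to 2.27); these intervals cover counting error only.

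Band 13q34 was above the deserts too, but its own level was below the autosomal mean. Over its 47 used bins (110300001 to the end) the levels were 0.329 in the lowest cell, which was cell 26, 0.888 in the median cell and 1.16 in the highest. It was above 1 in 3 cells. It exceeded 13q21 in 25 of 26 cells (log2 ratio 0.97 ± 0.47, 1.95-fold) and 13q31 in 25 of 26 (0.79 ± 0.51, 1.72-fold), and both counts were 24 under 4 of the alternatives. Cell 22 ran the other way in both, at -0.31 and -0.87, and cell 26 was close to 0 against 13q21, at 0.13. Without cell 22 the mean log2 ratios were 1.02 and 0.85. Band 13q34 was below 13q14 in 23 of 26 cells, by a log2 ratio of -0.43 ± 0.44, or -0.42 without cell 22.

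**Figure D2:**
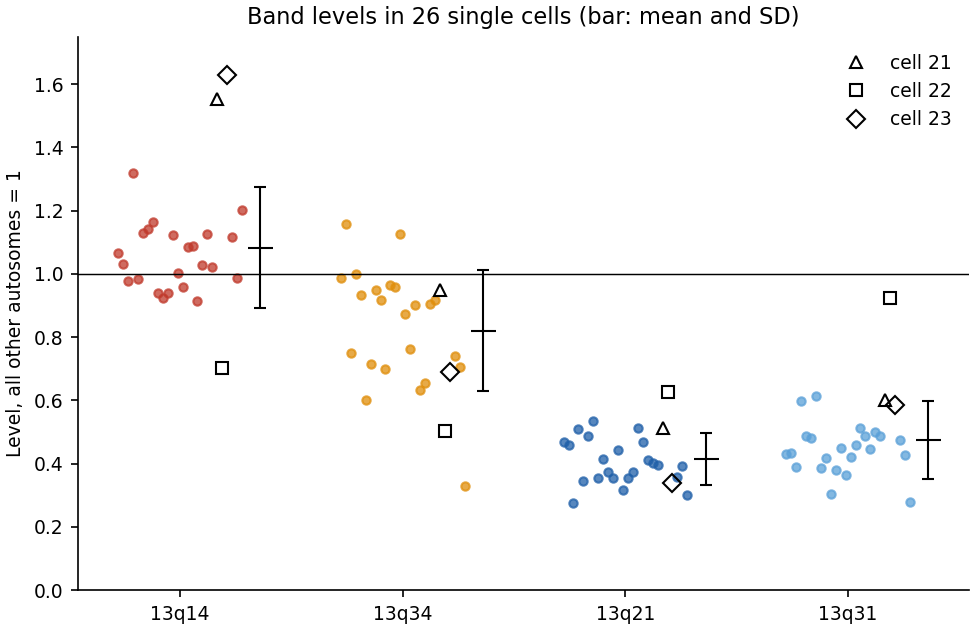
Levels of 13q14, 13q34, 13q21 and 13q31 in 26 single cells (y axis: level, all other autosomes = 1; each point is 1 cell, horizontal mark and bar give mean and SD). Apart from cell 22 (square), every cell has 13q14 and 13q34 above both deserts; cells 21 and 23 (triangle and diamond) are the 2 highest for 13q14.

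Differences of this kind are common in the genome. Of all pairs of 5 Mb windows on the same other autosome, 67.7% had 1 window higher than the other in at least 21 cells, and the median size of a pair's mean log2 ratio was 0.50. The size for 13q14 over 13q21 was larger than in 93.6% of those pairs, and that for 13q34 over 13q31 larger than in 71.2%. The bands differ in length from 5 Mb, so these percentages are only a guide. In 25 of 26 cells, both 13q14 and 13q34 were above both deserts, and joined they exceeded the joined deserts by a log2 ratio of 1.22 ± 0.37, or 1.28 ± 0.22 without cell 22. The lowest of the 9 bands was 13q21 in 18 cells and 13q31 in 6.

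**Figure D3:**
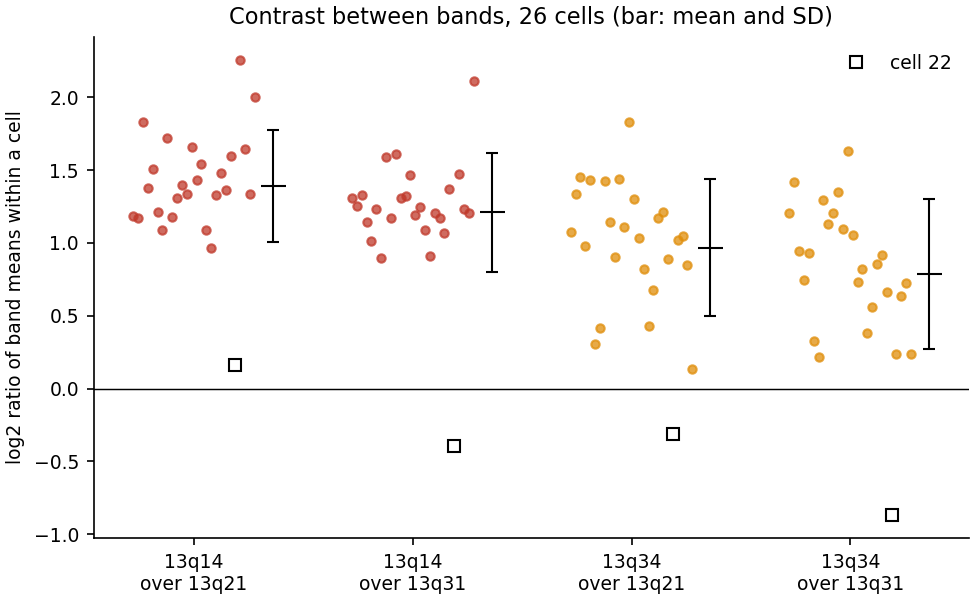
log2 ratio of band means within each of 26 cells (y axis) for 13q14 and 13q34 over 13q21 and 13q31; each point is 1 cell, the mark and bar give mean and SD, and the square is cell 22. All 26 cells lie above 0 for 13q14 over 13q21 and all but cell 22 in the other 3 contrasts.

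Levels differed inside 13q14. Sub-band 13q14.13 (45800001 to 47300000) had 1.49 ± 0.466 and was above 1 in 25 of 26 cells, and 13q14.2 (47300001 to 50900000), where RB1 lies, had 1.25 ± 0.323 and was above 1 in 24. The other sub-bands had means of 0.961 ± 0.191 in 13q14.11, 1.19 ± 0.568 in 13q14.12 (6 bins) and 0.928 ± 0.256 in 13q14.3. Sub-band 13q14.2 exceeded 13q14.3 in 23 of 26 cells (log2 ratio 0.45 ± 0.37).

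Sub-band 13q14.3 ended in a steep fall. Its window at 52000001 to 53000000 had a summed level of 1.49 (95% Poisson interval 1.38 to 1.60), and that at 54000001 to 55000000 had 0.367 (0.320 to 0.421), already as low as the desert that follows. The window between them stood at 0.710 by summed counts and at 0.994 ± 0.507 by the mean ratio. That difference goes with 1 bin, at 53100001 to 53200000, whose expectation was 0.114 times the median bin and whose mean relative ratio of 3.33 rests on 20 counts. Sub-band 13q14.3 was above 13q21.1 in all 26 cells, by 2.83-fold on average over cells and 2.48-fold by summed counts.

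Neither desert was uniform. In 13q21, the lowest sub-bands were 13q21.1 at 0.333 ± 0.109 and 13q21.33 at 0.347 ± 0.112, and each was below 1 in all 26 cells. Sub-band 13q21.2 (59600001 to 62300000) lay between low flanks at 0.642 ± 0.177. It exceeded 13q21.1 in 24 cells (log2 ratio 0.97 ± 0.63) and 13q21.31 in 23 (0.80 ± 0.86). Its window at 60000001 to 61000000 reached a summed level of 0.895 (0.822 to 0.973), with single cells between 0.236 and 1.26 and 9 cells above 1.

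In 13q31 the floor was 13q31.2 at 0.348 ± 0.164, with 0 counts in cell 10 over its 23 bins. Sub-band 13q31.1 had 0.474 ± 0.197 and 13q31.3 had 0.534 ± 0.121; 13q31.3 was above 13q31.1 in 21 of 26 cells, by a log2 ratio of 0.22 ± 0.58. Within 13q31.3 the window at 91000001 to 92000000 reached 0.730, with 7 cells above 1. The proximal edge of this desert was also marked, with 13q22.3 at 0.944 ± 0.365 above 13q31.1 in all 26 cells (log2 ratio 0.99 ± 0.33). Sub-bands in these 2 paragraphs and the 2 windows singled out inside the deserts were compared after their values were seen.

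Band 13q34 was higher in its last part than before it, without a steady rise. Its last 2.1 Mb of used bins had 0.963 ± 0.305 and the 2.6 Mb before them 0.705 ± 0.213. The last part was higher in 21 of 26 cells, by a log2 ratio of 0.45 ± 0.71, a split chosen after the values were seen. The window at 112000001 to 113000000 was the lowest of the 5 in the band, at 0.604 (0.540 to 0.673), and that at 113000001 to 114000000 the highest, at 1.07 (0.982 to 1.15). Before the lowest, the windows stood at 0.761 and 0.889, and the last one, after the highest, stood at 0.975. The last bins also had a smaller expectation, 0.841 times the median bin on average against 1.06 times before them. Its part in the difference was not tested.

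**Figure D4:**
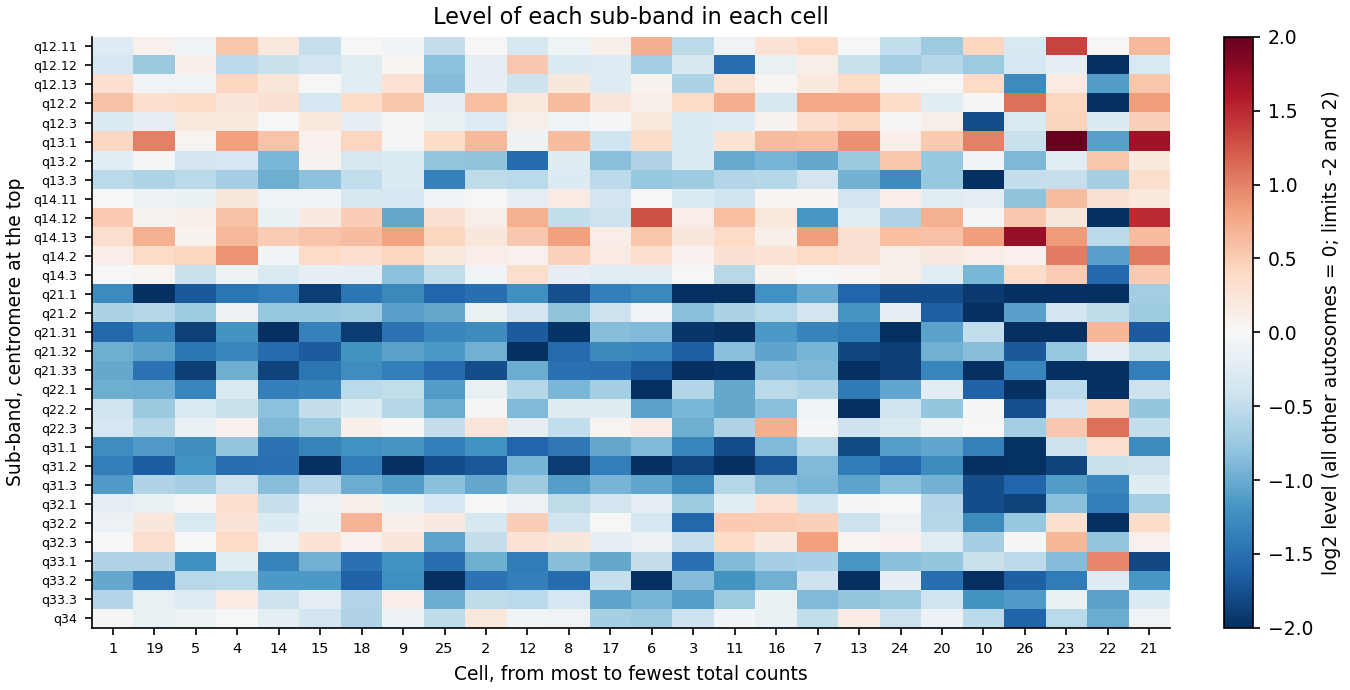
Level of each of 31 sub-bands (rows, centromere at the top; 13q34 has no sub-bands) in each of 26 cells (columns, from most to fewest total counts), coloured by log2 level with all other autosomes at 0 and limits at -2 and 2. Sub-bands 13q21.1 to 13q21.33 and 13q31.1 to 13q31.3 are blue in most cells; in cell 22 13q21.31, 13q31.1 and 13q33.1 are red.

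The bands that were not contrasted also alternated. In 13q12, sub-band 13q12.2 (27800001 to 28900000), where the receptor tyrosine kinase gene FLT3 lies, had 1.28 ± 0.394 and was above 1 in 21 of 26 cells, with cell 22 the lowest at 0.187. The sub-bands on its sides had 1.01 ± 0.276 (13q12.13) and 1.00 ± 0.228 (13q12.3), and 13q12.12, nearer to the centromere, had 0.770 ± 0.256. In 13q13 the level was 1.52 ± 0.909 in 13q13.1, above 1 in 20 cells, and 0.653 ± 0.189 in 13q13.3, below 1 in 25. Distal to the second desert, 13q32 exceeded 13q31 in 25 of 26 cells (log2 ratio 0.94 ± 0.50, or 1.02 ± 0.28 without cell 22), with 13q32.3 at 1.04 ± 0.290. Band 13q33 then formed a shallower trough, lowest in 13q33.2 at 0.461 ± 0.196, which was below 1 in all 26 cells. Band 13q34 was above 13q33 in 24 of 26 cells (log2 ratio 0.45 ± 0.51, or 0.51 ± 0.40 without cell 22), and the 2 exceptions were cells 22 and 26. These sub-bands were singled out after their values were seen.

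In 1 Mb windows chromosome 13 had many low and few high stretches. Of its 96 windows, 31 had a summed level of 0.5 or less, near 1 in 3, where 16.5% of windows on all other autosomes did. Only 2 (2.08%) had 1.5 or more, against 18.3%. The deserts held 24 of the 31 low windows, in 34 windows. The other low windows lay in 13q33 (3), 13q13 (2), 13q14 (1) and 13q22 (1). Chromosome 4, another gene-poor chromosome, had 34.2% low windows and 4.28% high ones, and chromosome 18 had 21 low and 6 high ones of 75. Chromosome 14, an acrocentric with more genes than chromosome 13, had 18.4% low and 19.5% high windows. The highest window reached 1.62 on chromosome 13, 2.01 on chromosome 4, 1.89 on chromosome 18 and 2.16 on chromosome 14. No test sets these chromosomes apart, since each has 1 profile from 1 clone.

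The 5 highest windows were 50000001 to 51000000 (13q14.2) at 1.62, 41000001 to 42000000 (13q14.11) at 1.60, 52000001 to 53000000 (13q14.3) at 1.49, 21000001 to 22000000 (13q12.11) at 1.48 and 49000001 to 50000000 (13q14.2) at 1.45. In the first of them single cells ran from 0.583 to 2.89, and 24 of 26 were above 1. On the other autosomes, 85.8% of windows were below its level, so the peak of chromosome 13 was a moderately high window by the standard of the genome. The 5 lowest were 57000001 to 58000000 (13q21.1) at 0.266, 70000001 to 71000000 (13q21.33) at 0.300, 87000001 to 88000000 (mostly 13q31.1) at 0.300, and 55000001 to 56000000 and 62000001 to 63000000 (mostly 13q21.1 and mostly 13q21.31) at 0.319 each. In the lowest of all, 134 counts were summed over 26 cells, 3 cells had no count, and the highest cell stood at 0.700. Only 0.208% of windows on the other autosomes were lower.

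Bins were then sorted by how many cells reached their expected signal, a deposited ratio of at least 1. A shared bin is one where 21 or more cells did so, and a rare bin one where 5 or fewer did. Chromosome 13 held 13 shared bins (1.36%), where the whole series had 5.61%, and 434 rare bins (45.4%), where the whole series had 33.5%. Without cell 22, at the same shares of the other 25 cells, it held 17 shared and 464 rare bins, where all used bins of the series gave 6.92% and 35.8%. Band 13q14 held 8 of the 13 shared bins, or 5.30% of its own bins, which is close to the background. Band 13q34 held 1 and the deserts 0. The rare bins were 32 of the 151 in 13q14 and 23.4% of 13q34, against 76.7% of 13q21 and 74.8% of 13q31. The deserts held 59.2% of the rare bins and 35.5% of the used bins of the chromosome.

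**Figure D5:**
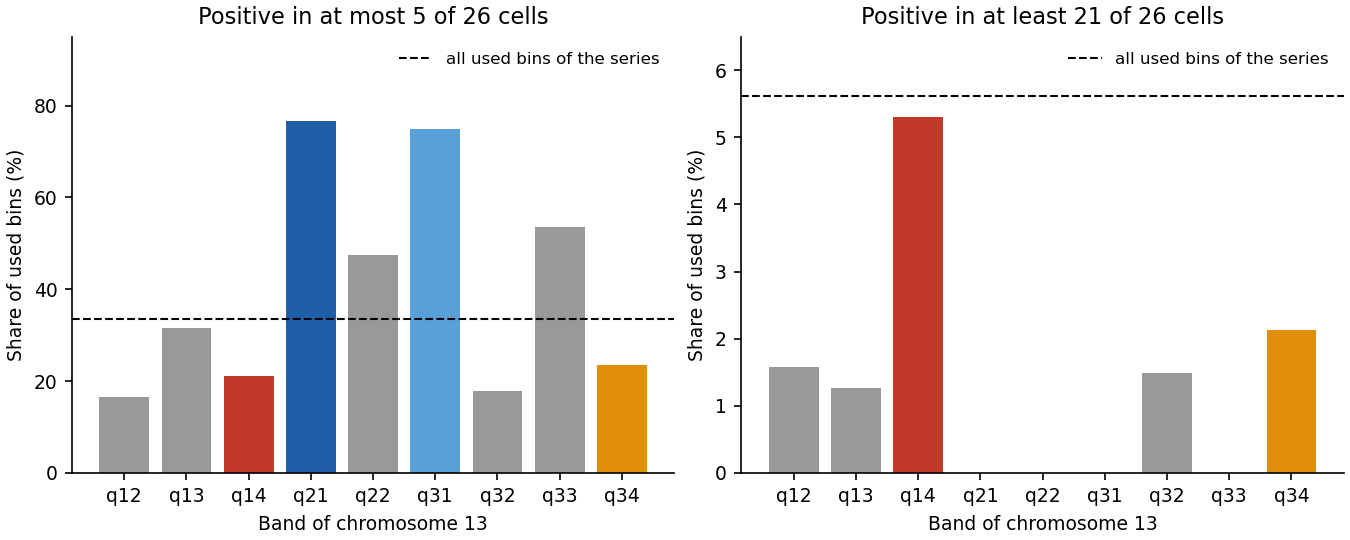
Share of used bins (y axis, %) in each band of chromosome 13 that were rare (at or above 1 in at most 5 of 26 cells, left) and shared (in at least 21, right); the dashed lines give the same share over all used bins of the series, 33.5% and 5.61%. Rare bins exceed 70% in 13q21 and 13q31 alone, and the shared bins of 13q14 come close to the dashed line.

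Shared bins stood mostly alone. The only 2 that touched formed a block at 46600001 to 46800000 in 13q14.13, with a level of 2.58 ± 1.29 and above 1 in 25 cells. Shared bins were picked for high ratios in most cells, so the high level of this block follows largely from that choice. Among bins with an expectation of at least 0.5 times the median, the highest was 50100001 to 50200000 in 13q14.2. Its ratio relative to the other autosomes was 3.54 ± 2.30, with 0 in the lowest cell, 3.00 in the median cell and 9.84 in the highest. The bin at 41500001 to 41600000 in 13q14.11 followed at 3.52 ± 1.72; it had a count in all 26 cells and reached 1 in 25. The next 3 were 49000001 to 49100000 (13q14.2) at 2.89 ± 1.60, 32600001 to 32700000 (13q13.1) at 2.87 ± 2.35 and 46600001 to 46700000 (13q14.13) at 2.82 ± 1.60. Their order is not secure, because neighbours differ by far less than their SD. No bin of the chromosome reached 1 in all 26 cells, and 20 reached it in none. Neither count is set beside the whole series, so neither can be read as particular to this chromosome.

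The 434 rare bins formed 126 blocks, most of them short. The longest, 28 bins at 56200001 to 59000000 in 13q21.1, had a level of 0.295 ± 0.117 with single cells between 0.0703 and 0.497. Rare bins were picked for low ratios in most cells, so low levels of their blocks follow largely from that choice. On other chromosomes 5 blocks were as long or longer. The next, of 16 bins each, lay at 62300001 to 63900000 in 13q21.31 (0.333 ± 0.221) and at 89400001 to 91000000 across 13q31.2 and 13q31.3 (0.298 ± 0.139). In the 13q21.31 block 1 cell, cell 22, was above 1, at 1.22. Blocks of at least 5 rare bins numbered 2 in 13q14 and 0 in 13q34, against 9 in 13q21 and 9 in 13q31. The other bands held 2 in 13q22, 2 in 13q33, 1 in 13q32 and 0 in 13q12 and 13q13. These counts are not set beside other chromosomes, and band size differs: 13q34 has 47 used bins, 13q21 has 180 and 13q31 has 159. Of the 5 lowest single bins with an expectation of at least 0.5 times the median, those in 13q21.1 lay in the longest block. These were 56300001 to 56400000, 57800001 to 57900000 and 56800001 to 56900000. The others, 70700001 to 70800000 and 70200001 to 70300000 in 13q21.33, lay outside the blocks named here. All 5 had mean relative ratios between 0.0592 and 0.0924 from 4 to 7 counts each. With so few counts their order cannot be read.

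Seen cell by cell, counts were missing more often in the deserts than in 13q14 and 13q34. In 13q14 a mean of 30.9% ± 17.0 of bins had no count in a cell, and in 13q34 37.9% ± 20.9, against 56.9% ± 17.9 in 13q21 and 53.6% ± 18.1 in 13q31. The same share was 42.6% over chromosome 13, 44.7% over chromosome 4, 40.0% over chromosome 18 and 36.7% over chromosome 14. The longest stretch without a count lay in 13q21 in 15 cells and in 13q31 in 6, where these 2 bands hold 35.5% of the used bins. It ran from 0.3 Mb in cell 1, the deepest cell, to 3.2 Mb in cell 10 (86900001 to 90100000). In cell 1 it was not in a desert but in the 3 bins of 13q11 (19200001 to 19500000). With 3 bins of small expectation, that stretch says little. With every cell thinned to 20000 counts, the longest stretch lay in 13q21 in 16 cells and in 13q31 in 3, and its median length was 1.85 Mb.

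The spread between cells can be set beside the counting error, as a description: separate amplified libraries can differ by more than Poisson counting for technical reasons, which was not tested. The SD of the level by summed counts was 14.5% of the mean for the whole chromosome, where counting alone gives 2.93%. For single bands this ran from 17.0% in 13q14, where counting gives 6.19%, to 31.4% in 13q13, where counting gives 9.18%. In the deserts the SD was 19.4% for 13q21 and 24.1% for 13q31, with 9.07% and 9.14% from counting. In 13q34 it was 23.6%, with 12.4% from counting.

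The spread of 13q13 rested on 2 cells. Sub-band 13q13.1 (32200001 to 34000000) had a level of 1.52 ± 0.909 and was highest in cell 23 at 5.09 and cell 21 at 3.22. In the other 24 cells it was 1.30 ± 0.407 with a highest value of 2.01. The same 2 cells were the highest for 13q12 to 13q14 as a whole, at 1.64 and 1.53 with the next cell at 1.19, while their 13q21 levels, 0.340 and 0.514, were inside the range of the other cells. Cells 21 and 23 were among the 6 of lowest coverage, with 20182 and 21657 counts. The DNA copy number of each cell was not analysed, so more DNA and more Dam marking cannot be told apart here.

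Cell 22 had many of its high stretches elsewhere. Its levels were 1.58 in 13q21.31, 1.27 in 13q31.1, 2.15 in 13q22.3 and 1.96 in 13q33.1, and 0.473 in 13q14.2, 0.187 in 13q12.2 and 0.189 in 13q32.2. Not every desert sub-band was high in cell 22: 13q21.1 had 0.122, the lowest of the 26 cells, and 13q21.33 had 0.204. Nor was every proximal sub-band low in it: 13q14.11 had 1.23, and 13q13.2 had 1.47, the highest of the 26 cells. Cell 22 was above 1 in 12 of the 34 desert windows, where no other cell was above 1 in more than 5. Across the deserts, 12 windows had no cell above 1 and 27 had at most 1. These window counts are not set beside other autosomes, so they cannot be read as particular to the deserts.

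Correlations of band levels across cells are given as a description. The Pearson correlation of 13q21 with 13q31 was 0.747 over 26 cells of 1 clone (Spearman 0.681), 0.678 without cell 22 and 0.618 without the 2 cells farthest from the median of 13q21. For 13q31 with 13q33 it was 0.782 (0.591 without the 2 farthest cells), so the pair of deserts did not stand apart, and for 13q14 with 13q34 it was 0.146. Among proximal bands it was 0.80 for 13q12 with 13q14 (0.540 without the 2 farthest cells) and 0.857 for 13q13 with 13q14, but 0.416 without the 2 cells farthest from the median of 13q13, which are cells 21 and 23. The 36 pairs of bands share a denominator and a library in each cell, and their median was 0.189, or 0.380 without cell 22.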

How the data were processed

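The deposited table gives, for each of the 26 cells, a linear ratio of observed over expected signal per 100 kb bin; the ratio is read from the file's name and the cell means. Per the submitters' processing notes, cutadapt, Bowtie2 2.1.0 and the build hg19 were used. Not given in the sources used here were the methods of counting, of leaving out bins and of computing expected signal. Per the labels' protocols, marked DNA was amplified with 21 extension steps.

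Every column was matched to 1 sample by its number. Whole counts were recovered with a tolerance of 0.001. Bands followed the hg19 cytogenetic map, with edges from textbook knowledge, and a bin went to the band that holds its centre. Windows of 1 Mb needed 5 used bins. Exact Poisson or conditional binomial (Clopper-Pearson) 95% intervals reflect counting alone. No source used here says if PCR copies were told apart. Regions were named by rule: every band, sub-bands of the 4 contrasted bands, the 5 highest and lowest windows and bins, and the 3 longest blocks. Other sub-bands, windows and the cells singled out were chosen after their values were seen. The members, bands and rules were chosen with earlier results of these data known. Gene density, GC and GATC content per band were not analysed, since no hg19 annotation or genome was used here. Recovery and band levels were tested on simulated data. The work used scipy 1.17.1, matplotlib 3.10.9, numpy 2.4.6 and pandas 2.3.3 under Python 3.11.15.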

Additional observations from a re-analysis of the deposited data

How the results depend on the processing

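Of 169 recomputed values, all but 6 stayed within 1 SD between cells (levels and log2 ratios) or within 1.5 times the main count. Of the 169, 0 changed direction. The 6 that moved were all counts of shared or rare bins. For levels and log2 ratios the limit was loose, since a mean over nearly the same cells can hardly move by 1 SD between cells. The log2 ratio ran from 1.32 to 1.55 for 13q14 over 13q21, from 1.14 to 1.42 for 13q14 over 13q31, from 0.90 to 1.24 for 13q34 over 13q21 and from 0.74 to 1.11 for 13q34 over 13q31, over 11 alternatives each; the highest was always that on shares of bins at 1 or more. The chromosome level ran from 0.728 to 0.755 over 7. Band sides held in 88 of 90 recomputations. The exceptions were 13q34, with 20 of 26 cells below 1 by summed counts over summed expectation and also without bins of small expectation. With the ratio a cell must reach set to 0.5, chromosome 13 held 82 shared and 106 rare bins; set to 2, it held 0 and 833. Without the 6 cells of lowest coverage it held 23 shared bins, and with every cell thinned to 20000 counts 246 rare ones. Among all used bins, shared bins made up 17.8% at 0.5, 0.460% at 2 and 9.18% without those 6 cells, and rare bins 6.86% at 0.5, 75.1% at 2 and 19.3% after thinning. A changed limit moves these counts by construction; the cause of the other shifts was not tested. The number of cells and 1 clone limit all statements, and 1 bin in 1 cell rests on few counts. No paired analysis was possible because replicate numbers link no samples across groups, all 26 cells being 1 group; contrasts between bands compare regions inside each cell. Leaving out cell 22 in the contrasts of other bands was added after seeing the data; of the steps between neighbours in level, 13q22 over 13q33 then held in 20 of 25 cells.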
